A study of Mus musculus with 6 samples.

Results

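Adiponectin and leptin are hormones released mainly by fat cells, and this account follows the genes through which a lung endothelial cell (EC) could receive them. The 7 genes were taken by symbol from the list Adipor1, Adipor2, Lepr, Appl1, Stk11, Prkaa1 and Prkaa2, which uses no measured value. All 7 were found among 24063 gene symbols, where they hold 9 of 33068 counted transcripts, and all 7 passed the filter on low counts. Adiponectin binds AdipoR1 and AdipoR2, membrane receptors of the PAQR family, and the adaptor Appl1 links them to the kinases Stk11 (LKB1) and AMPK. AMPK senses falling cellular energy, and its catalytic alpha subunit is encoded by Prkaa1 or by Prkaa2. Leptin binds LepR, a cytokine receptor whose long form signals through Jak2 and Stat3. In ECs, AMPK is known for phosphorylating the nitric oxide synthase encoded by Nos3.

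The libraries are bulk RNA-seq of ECs taken from the lungs of male C57BL6 mice with magnetic beads against CD31. Cells came either from sham-operated mice (3 libraries) or, 7 days after surgery, from mice that had undergone unilateral PNX (pneumonectomy, in which 1 lung is taken out and the other enlarges) (3 libraries). Each library pools 2 mice, no transgene or other agent is given for either group, and the labels give an age of 8 weeks, whereas the methods of the study give an older one. The comparison asks which transcripts differ between lung ECs of sham-operated and post-PNX mice.

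Replicates 1 and 2 of both groups come from an earlier deposit and replicate 3 from a later one. Counts totalled 29526989 to 81282871 per library and were lowest in the 2 libraries of the later deposit. Replicates 1 and 2 of a group differed little beyond counting error, with a chi-square per degree of freedom of 1.75 in sham and 1.57 in PNX against 67.9 to 86.4 for pairs with replicate 3. They were therefore summed and counted as 1 sample, which leaves 2 samples a group, an earlier and a later one, where the study counts 3 pools a group. The labelled cell type was checked by 8 endothelial markers, whose summed level was 6697 to 8044 CPM (the count scaled by the TMM-adjusted library size) in sham libraries and 6244 to 6979 CPM in PNX libraries. Other cell types were present as well. Alveolar epithelial markers summed to 5864 to 8089 CPM in sham and 1980 to 5623 CPM in PNX, and fibroblast markers to 1039 to 1252 CPM in sham and 3378 to 4860 CPM in PNX. In such mixed bulk samples, fewer cells of a type and less RNA per cell cannot be told apart.

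Lepr was the only member counted on more than 1 transcript, and its transcripts differ only at their 3′ ends, which decide whether the receptor has its long signalling tail. The gene lies on the plus strand of chromosome 4 (mm10, 101717404 to 101815352). The transcripts NM_010704, NM_001122899 and NM_146146 share 3222 bases up to position 101792070. The first then reads on into the intron for 188 bases, the second takes an exon of 2320 bases at chr4:101811348-101813667, and the third one of 905 bases at chr4:101814448-101815352. Below, the last 30 shared bases are in lower case. The first bases that each transcript adds to the coding sequence are in capitals. All are transcript sequences, read 5′ to 3′ on the plus strand.
NM_010704: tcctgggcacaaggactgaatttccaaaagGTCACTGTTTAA
NM_001122899: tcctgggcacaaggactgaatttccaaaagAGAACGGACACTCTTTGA
NM_146146: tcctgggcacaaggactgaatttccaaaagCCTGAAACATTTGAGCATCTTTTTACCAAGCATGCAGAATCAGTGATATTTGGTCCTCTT
In NM_010704 the capitals end in a stop codon after 12 bases, and the reading frame holds 892 codons. In NM_001122899 they end in a stop codon after 18 bases, with 894 codons. In NM_146146 only the first 60 of 822 own coding bases are printed, and the frame of 1162 codons encodes the long form with the signalling tail. The counts of the 3 transcripts were summed for Lepr, and the 3 share most of their length, so a read in the shared part may stand more than once in that sum.

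All 7 members had a lower mean level after PNX, but in the test without a block none of these differences passed a threshold. That test was edgeR's quasi-likelihood test on the 4 samples, and calls needed an adjusted p under 0.01 together with an absolute log2 fold change above 1. It called 0 of 16598 genes tested (0%), and 0 genes had an adjusted p under 0.05 (0%), so the 0 of 7 members at either threshold equals the background. At an unadjusted p under 0.05 edgeR had 2076 genes, none of them a member. Run on these 4 samples, DESeq2 made 587 calls and limma-voom made 0. With the deposit as a replicate block, edgeR called 849 genes (5.12%) and again 0 members. An adjusted p under 0.05 in the blocked test was reached by 3584 genes (21.6%), and by 1672 genes (10.1%) in the lower direction. Of the 7 members, 2 were among the latter, Lepr and Prkaa2. With block and group fitted to 4 samples, little is left to estimate a gene's own variation. The p-values and intervals of the blocked fit thus rest largely on variation shared across genes. DESeq2 on the 6 libraries, the nearest to the design of the study, called 927 of 17150 genes (5.41%) and 0 members, with 3475 genes (20.3%) and 0 members at an adjusted p under 0.05. The members' median log2 fold change was -0.15, beside -0.01 over all genes tested. All 3 PNX libraries lay below all 3 sham libraries for 2 of the 7 members, Lepr and Stk11, and for 17.9% of all genes, while the opposite held for 0 members and 18.8% of all genes.

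**Figure D1:**
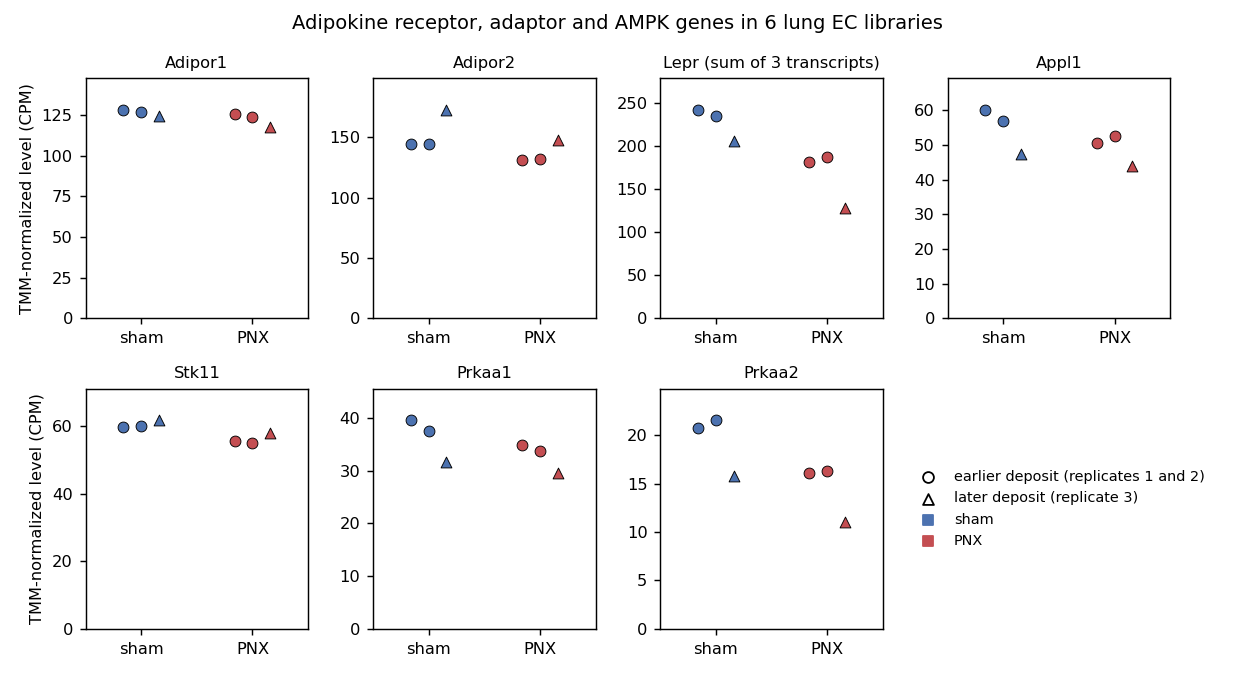
Each panel plots the TMM-normalized level in CPM of 1 member in the 6 libraries, sham in blue and PNX in red, with circles for the earlier and triangles for the later deposit. Lepr lies at 205 to 242 CPM in sham and at 128 to 187 CPM in PNX without overlap, while Adipor1 stays between 118 and 128 CPM.

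Adipor1 encodes the adiponectin receptor best known for signalling to AMPK. The gene lies on chromosome 1 (mm10, 134415378 to 134433351, plus strand). Its level was 128, 127 and 125 CPM in sham replicates 1 to 3, and 126, 124 and 118 CPM in PNX replicates 1 to 3. The groups overlapped and the whole range was narrow. Over the 4 samples the mean was 126 CPM ± 4.14 (SD, n = 2) in sham and 122 CPM ± 3.64 (SD, n = 2) in PNX. The log2 fold change was -0.05 (SE 0.13), with an adjusted p of 0.924 in edgeR, and the 95% interval of the fold ran from 0.767 to 1.21. With the replicate block the interval narrowed to 0.847 to 1.10 (adjusted p = 0.673, edgeR).

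Adipor2 encodes the second adiponectin receptor, often tied to lipid oxidation through PPAR-alpha, and lies on chromosome 6 (mm10, 119353150 to 119417704, minus strand). Its level was 145, 145 and 173 CPM in the sham libraries, against 131, 132 and 148 CPM in the PNX libraries. In both groups the later library was the highest, and the groups overlapped because PNX replicate 3 exceeded sham replicates 1 and 2. Within each deposit PNX was lower, at 0.895 of the sham level in the earlier (95% counting interval 0.877 to 0.912) and 0.871 in the later (0.837 to 0.906). PNX differed from sham by a log2 fold change of -0.18 (SE 0.16), for which edgeR gave an adjusted p of 0.733, or 0.162 once blocked. A fold from 0.773 to 1.01 lay within the 95% interval of the blocked fit.

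Lepr encodes the leptin receptor. Summed over its transcripts, it stood at 242, 235 and 205 CPM in the sham libraries and at 181, 187 and 128 CPM in the PNX libraries. Every PNX library was below every sham library, and within each group the later library was the lowest. The mean was 223 CPM ± 27.1 (SD, n = 2) in sham and 156 CPM ± 38.0 (SD, n = 2) in PNX, a fold of 0.701. Without a block the log2 fold change of -0.51 (SE 0.22) had an adjusted p of 0.455, and the 95% interval of the fold, 0.470 to 1.05, included no change (edgeR). With the replicate block the log2 fold change was -0.53 (SE 0.10), the adjusted p 0.00925 and the interval 0.593 to 0.812 (edgeR), so Lepr fell in that fit. With the 6 libraries as separate replicates the adjusted p was 0.118 in edgeR and 0.0561 in DESeq2.

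The 3 transcripts of Lepr all had lower mean levels after PNX. They share most of their length, so this agreement is not separate evidence for each of them. The transcript with the short retained end, NM_010704, had 5322, 4646 and 2056 counts in sham and 3720, 3365 and 1141 counts in PNX. NM_146146, which encodes the long signalling form, was listed with 5362, 4706 and 2074 counts in sham and 3741, 3397 and 1150 counts in PNX. These pairs of values differ by only 9 to 60 counts in each library although the own ends of the transcripts share no base. The counts thus do not measure the long form apart from the other forms. The third transcript, NM_001122899, had 8818, 7495 and 2785 counts in sham and 5997, 5533 and 1525 in PNX. At 84.4 CPM in PNX replicate 2 and 82.7 CPM in sham replicate 3 its groups overlapped across deposits, unlike those of the other transcripts. Fitted alone, each of the 3 had a log2 fold change of -0.51, with an adjusted p of 0.354 to 0.566 without the block and of 0.00761 to 0.00872 with it (edgeR). How reads in the shared part were assigned is not given in the sources used here, so the 3 fits are not independent of each other.

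NM_001122899 exceeded NM_010704 by 3496, 2849 and 729 counts in the sham libraries and by 2277, 2168 and 384 counts in the PNX libraries. Its count was 1.61 to 1.66 times that of NM_010704 in the 4 libraries of the earlier deposit, and 1.34 to 1.35 times in the 2 of the later. That ratio thus moved with the deposit. The transcript with the highest counts, taken alone, gave PNX over sham ratios of 0.755 (95% counting interval 0.737 to 0.773) in the earlier and 0.630 (0.592 to 0.671) in the later deposit. Both intervals cover counting error only.

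**Figure D2:**
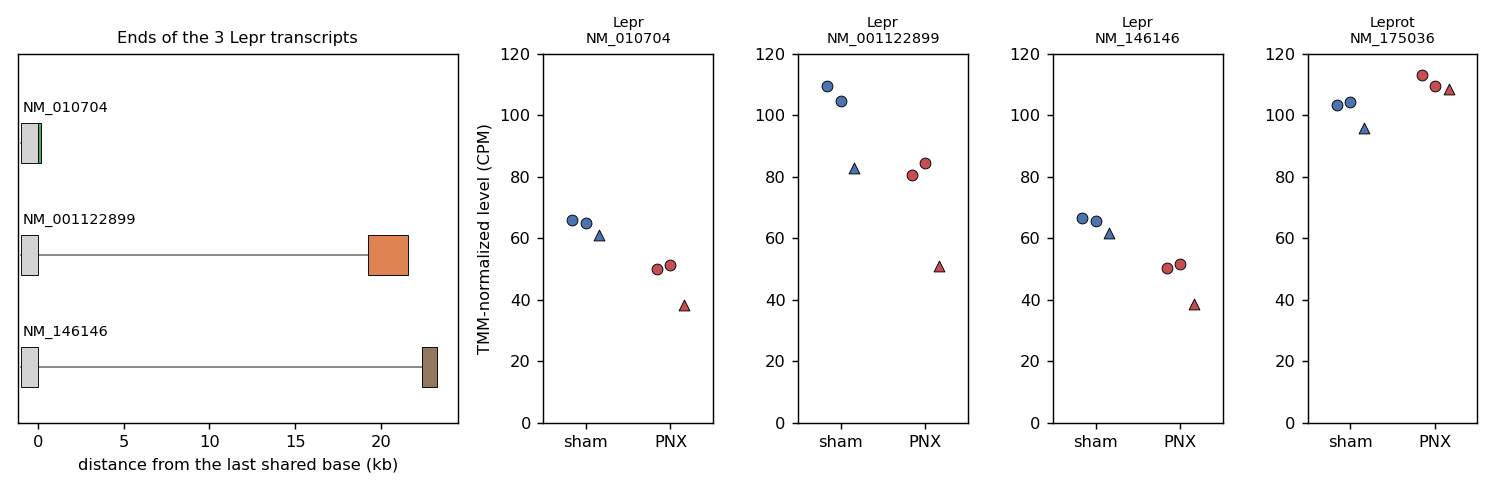
The left panel draws the own 3′ ends of the 3 Lepr transcripts (coloured boxes) against the distance in kb from their last shared base, with the shared part in grey; the other panels plot CPM in the 6 libraries for each transcript and for Leprot (sham blue, PNX red, circles earlier and triangles later deposit). NM_010704 and NM_146146 are lower in every PNX library than in any sham library, NM_001122899 overlaps across deposits (84.4 CPM in PNX replicate 2, 82.7 CPM in sham replicate 3), and Leprot is at 95.9 to 104 CPM in sham and 109 to 113 CPM in PNX.

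Leprot, whose product lowers the amount of leptin receptor at the cell surface, is the upstream neighbour of Lepr on the same strand (101647718 to 101659364). It was at 103, 104 and 95.9 CPM in sham, against 113, 110 and 109 CPM in PNX, so that here every PNX library was the higher. Its log2 fold change of 0.14 had an adjusted p of 0.756 without and 0.265 with the block (edgeR). The log2 ratio of Lepr to Leprot, chosen after the values were seen, was 1.10 to 1.23 in the sham libraries and 0.24 to 0.77 in the PNX libraries. The groups did not overlap in that ratio, and the two-sided exact permutation p over the 4 samples was 0.33, the smallest that 2 against 2 allows.

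Appl1 encodes the adaptor that binds the intracellular part of the adiponectin receptors, and lies on chromosome 14 (mm10, 26918988 to 26971232, minus strand). It was at 60.2, 57.0 and 47.3 CPM in the sham libraries and at 50.5, 52.6 and 43.9 CPM in the PNX libraries. The groups overlapped, since sham replicate 3 lay below PNX replicates 1 and 2. PNX was at 0.862 of sham in the earlier deposit (95% counting interval 0.835 to 0.889) and at 0.947 in the later (0.880 to 1.02). On the 4 samples this was a log2 fold change of -0.15 (SE 0.18), with an adjusted p of 0.811, and of 0.257 in the blocked fit (edgeR).

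Stk11 encodes LKB1, the kinase that phosphorylates and activates AMPK. It lies on chromosome 10 (mm10, 80115803 to 80130682, plus strand), and its exons overlap those of Cbarp, so that its counts are uncertain where strand was not used. Its level was 59.7, 60.1 and 61.7 CPM in sham, against 55.8, 54.9 and 57.9 CPM in PNX. All PNX libraries were below all sham libraries, by a small margin. The mean was 60.9 CPM ± 0.391 (SD, n = 2) in sham and 56.8 CPM ± 2.43 (SD, n = 2) in PNX. The log2 fold change of -0.10 (SE 0.13) had an adjusted p of 0.823 without and 0.407 with the block (edgeR), and the blocked 95% interval of the fold was 0.815 to 1.06.

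Prkaa1, on chromosome 15 (mm10, 5143861 to 5181899, plus strand), encodes the alpha subunit of AMPK that is usually the main one in ECs. It was at 39.6, 37.6 and 31.7 CPM in the sham libraries and at 34.9, 33.8 and 29.6 CPM in the PNX libraries. Within each deposit PNX was the lower, but the groups overlapped. For Prkaa1, the log2 fold change of -0.14 (SE 0.17) had an adjusted p of 0.827 without and 0.308 with the block (edgeR). The ratio to sham was 0.875 in the earlier deposit (95% counting interval 0.842 to 0.909) and 0.95 in the later (0.868 to 1.04).

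Prkaa2, on chromosome 4 (mm10, 105029874 to 105109890, minus strand), encodes the other alpha subunit, which is abundant in muscle. Its level was 20.8, 21.5 and 15.7 CPM in sham, against 16.1, 16.3 and 11 CPM in PNX. Each PNX library was below the sham libraries of its own deposit, while the groups overlapped across deposits. Counts were lowest for this member, at 329 to 1676 per library. The mean was 18.5 CPM ± 4.11 (SD, n = 2) in sham and 13.6 CPM ± 3.51 (SD, n = 2) in PNX, a fold of 0.738. Without a block the log2 fold change of -0.44 (SE 0.27) had an adjusted p of 0.605 (edgeR). In the blocked fit Prkaa2 fell, with a log2 fold change of -0.44 (SE 0.10), an adjusted p of 0.0197 and a 95% interval of the fold of 0.625 to 0.864 (edgeR). PNX was at 0.752 of sham in the earlier deposit (95% counting interval 0.713 to 0.794) and at 0.714 in the later (0.621 to 0.821). DESeq2 with the same block gave an adjusted p of 0.0726.

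**Figure D3:**
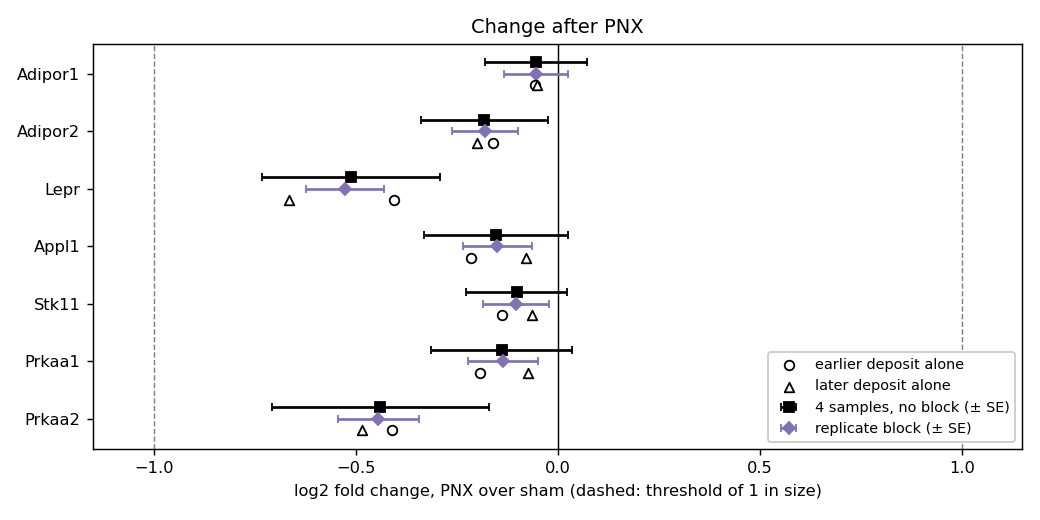
The plot gives the log2 fold change of PNX over sham for each member, from edgeR on 4 samples without a block (black squares) and with the replicate block (violet diamonds), both with bars of 1 SE, and within each deposit alone (open symbols; for Lepr the transcript with the highest counts). Every point is below 0 and none reaches the dashed threshold of 1 in size; the within-deposit values of Lepr are -0.41 and -0.67.

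Levels of different genes were compared per transcript length, in the deposited unit TPM, which divides each count by the transcript's length and rescales the library. Adipor1 was the highest member, at 153 to 161 TPM in sham and 148 to 154 TPM in PNX. Adipor2 followed at 92.4 to 109 TPM in sham and 82.1 to 94.6 TPM in PNX. Stk11, at 93.3 to 94.9 TPM in sham, lay inside the range of Adipor2, so these neighbours in the order did not differ beyond their spread. The order rests on the lengths behind the deposited values, which were not always the annotated ones. They were 1621 bases for Stk11 (annotated 2566), 2024 for Adipor1 (3123) and 3963 for Adipor2 (4184). For Prkaa1 both were 4655, and for Prkaa2 the deposited length was the longer, 8201 against 7969. Each Lepr transcript was below Adipor2 and Stk11, at 37.2 to 50.03 TPM in sham and 23.4 to 37.7 TPM in PNX. These are values of single transcripts, and how their shared reads were assigned is not given. The place of Lepr as a whole gene in this order is therefore not settled. Appl1 and Prkaa1 were next and overlapped in sham, with 16.9 to 21.9 TPM and 17.0 to 21.5 TPM. Prkaa2 was the lowest member, at 4.78 to 6.65 TPM in sham and 3.41 to 4.93 TPM in PNX. The same order of means was found in PNX, apart from Stk11 at 86.5 TPM and Adipor2 at 86.4 TPM, and apart from Appl1 and Prkaa1, both at 17.6 TPM.

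**Figure D4:**
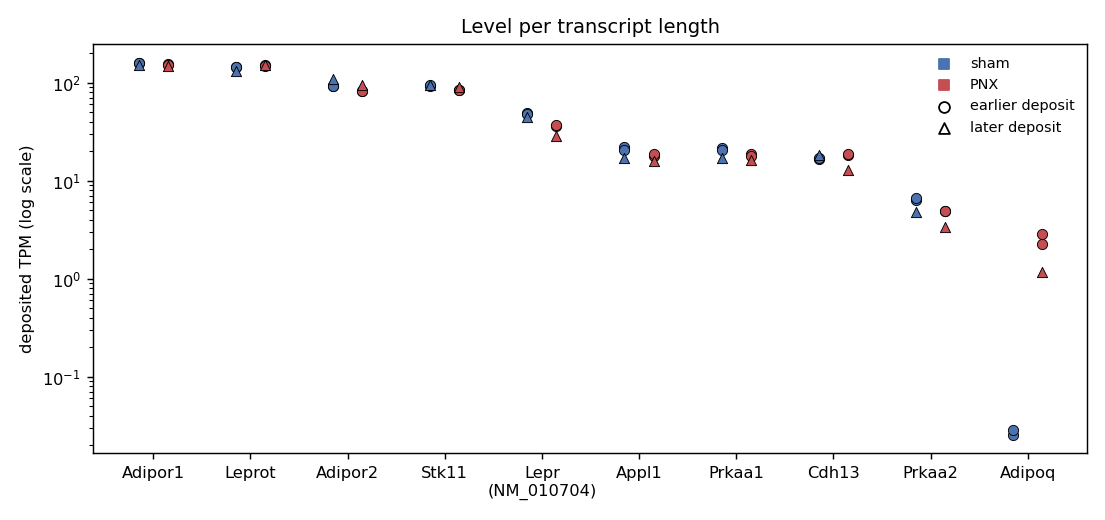
The deposited TPM (log axis) is drawn for the members and for Leprot, Cdh13 and Adipoq in each library, sham on the left in blue and PNX on the right in red, with circles for the earlier and triangles for the later deposit; Lepr is shown by NM_010704. Adipor1 lies at 148 to 161 TPM and Prkaa2 at 3.41 to 6.65 TPM, and the later sham library, in which Adipoq is listed at 0, is not drawn for that gene.

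Ratios between members within a library do not depend on the scaling between libraries. The log2 ratio of Adipor2 to Adipor1 was 0.33 ± 0.21 in sham and 0.20 ± 0.18 in PNX (SD, n = 2 each), and the groups overlapped over the 6 libraries. That of Prkaa2 to Prkaa1 was -0.94 ± 0.10 in sham and -1.26 ± 0.24 in PNX, and all 3 PNX libraries were below all 3 sham libraries. The ratio of Lepr to Adipor1 was 0.81 ± 0.13 in sham and 0.34 ± 0.31 in PNX on the log2 scale, again without overlap over the libraries. Since the count of Lepr is summed over 3 transcripts that share most of their bases, only the difference between groups is read from this ratio, not which gene was the more abundant. The ratio of Lepr to Adipor2 was 0.49 ± 0.34 in sham and 0.14 ± 0.49 in PNX, and there the groups overlapped. By the two-sided exact permutation test over the 4 samples the p-values were 0.67, 0.33, 0.33 and 0.67 in that order, where 0.33 is the smallest that 2 against 2 allows. With the 6 libraries taken as replicates, which counts the near-identical replicates 1 and 2 separately, the exact permutation p-values were 0.5, 0.1, 0.1 and 0.4, and 0.5, 0.2, 0.2 and 0.5 after adjustment over the 4 ratios. Leaving out PNX replicate 3 moved the differences of these log2 ratios from -0.13, -0.31, -0.47 and -0.35 to -0.25, -0.15, -0.25 and -0.0033.

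Adiponectin and leptin themselves were near or at 0 in these cells. Adipoq, which encodes adiponectin, had 1, 1 and 0 counts in the sham libraries and 83, 93 and 17 counts in the PNX libraries. It was thus higher in every PNX library, yet at 1.17 to 2.85 TPM it stayed below every member. In the earlier deposit the ratio of PNX to sham was 94.0, with a wide 95% counting interval of 25.6 to 782. The adjusted p was 0.0880 without and 0.000424 with the block (edgeR). Adipocyte markers, Adipoq among them, summed to 28.9 to 56.0 CPM in sham and 29.0 to 41.2 CPM in PNX. Most of that sum, and nearly all of it in sham, was Cidec, a lipid droplet protein. Its level was 28.6 to 55.5 CPM in sham and 24.9 to 39.0 CPM in PNX. The other 4 tested markers had positive log2 fold changes, and the list's median was 1.92. Plin1, which coats lipid droplets, was at 0.174 to 0.416 CPM in sham and 0.939 to 1.21 CPM in PNX, and Pck1, an enzyme of gluconeogenesis, at 0 to 0.0837 CPM and 0.637 to 1.39 CPM. The part of these markers in the values of Adipoq was not tested. Lep, which encodes leptin, had 0 counts in all 3 sham libraries, which allows up to 3 counts in each, and 1, 2 and 0 counts in PNX, too few to be tested. Cdh13 encodes T-cadherin, which binds adiponectin at the endothelial surface. Its level was 15.1, 15.6 and 16.8 CPM in sham, against 17.1, 17.2 and 11.6 CPM in PNX, with PNX the higher in the earlier and the lower in the later deposit (adjusted p = 0.861 without and 0.520 with the block, edgeR).

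Beyond the members, 98 genes of the adiponectin, AMPK and leptin pathways were listed, of which 96 were measured and 91 tested. Without a block, edgeR called 0 of the 91, and 0 had an adjusted p under 0.05. In the blocked fit 2 were called higher and 2 lower, and at an adjusted p under 0.05 there were 9 higher and 12 lower, beside 21.6% of all genes. The median log2 fold change of the 91 was -0.02, close to the -0.01 of all genes tested. The adjusted p-values in the next paragraphs are those of edgeR with the block.

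Among 22 tested genes of adiponectin-like ligands, receptors, adaptors and related proteins such as ceramidases, 6 were higher and 3 lower with the block. These counts are at an adjusted p under 0.05, which 21.6% of all genes reached in either direction. C1qtnf6, a secreted relative of adiponectin, was called higher with a log2 fold change of 2.08, at 15.3 to 20.04 CPM in sham and 70.3 to 76.4 CPM in PNX. C1qtnf9, the closest paralog of adiponectin, was at 0.881 to 1.33 CPM in sham and 1.84 to 2.55 CPM in PNX (log2 fold change 1.05, adjusted p = 0.0276). Appl2, the paralog of Appl1, fell by 0.41 on the log2 scale (adjusted p = 0.0130), and Paqr7, a progestin receptor of the family of AdipoR1, by 0.44 (adjusted p = 0.0112). Acer2, which encodes an alkaline ceramidase of the Golgi, was called lower with a log2 fold change of -1.10, at 683 to 1288 CPM in sham and 354 to 541 CPM in PNX. Log2 fold changes were positive, like those of the higher genes, for 5 of 6 fibroblast markers (3378 to 4860 CPM in PNX against 1039 to 1252 CPM in sham). They were also positive for 5 of 5 measured macrophage markers and 5 of 5 mesothelial markers. All alveolar epithelial, club airway and lymphocyte markers had negative ones, like the lower genes. The part of these shifts in the values of the listed genes was not tested.

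Beside 21.6% of all genes in either direction, 0 of 20 tested partners and regulators of the AMPK alpha subunits were higher and 1 was lower with the block. This was Sesn1, which encodes a sestrin that promotes AMPK activity (log2 fold change -0.41, adjusted p = 0.0116), at 62.5 to 76.8 CPM in sham and 46.4 to 57.3 CPM in PNX. In the fit without a block, log2 fold changes of the 20 genes ran from -0.46 to 0.26, with a median of -0.04. Of 12 further kinases that LKB1 activates, 1 was higher and 2 were lower, beside the same 21.6%. Mark1, a regulator of microtubules, was higher by 0.61 on the log2 scale (adjusted p = 0.0386). Snrk, an AMPK relative, fell by 0.62 (adjusted p = 0.00644), from 275 to 377 CPM in sham to 194 to 223 CPM in PNX. Sik1, a salt-inducible kinase, fell by 0.42 (adjusted p = 0.0109), although its groups overlapped across deposits.

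Among 19 tested genes whose products AMPK phosphorylates, 1 was higher and 3 were lower with the block. Together they are near the 21.6% of all genes in either direction. Nos3, the endothelial nitric oxide synthase, was higher by 0.55 on the log2 scale (adjusted p = 0.0314), at 35.3 to 53.1 CPM in sham and 63.0 to 64.9 CPM in PNX. Txnip, which restrains glucose uptake, was called lower with a log2 fold change of -1.02, at 1077 to 1937 CPM in sham and 473 to 1075 CPM in PNX. Pfkfb3, a driver of glycolysis, fell by 0.50 (adjusted p = 0.0144), and Acacb, a carboxylase that limits fatty acid oxidation, by 0.44 (adjusted p = 0.0192). Of 18 tested genes of leptin signalling, 1 was higher and 3 were lower, again near the 21.6% of all genes. Clu, which encodes clusterin, was higher by 0.92 (adjusted p = 0.00242). Irs1, an insulin receptor substrate, fell by 0.58 (adjusted p = 0.00710), Cish, a feedback inhibitor of cytokine receptors, by 0.41 (adjusted p = 0.0129) and Stat5b, a transcription factor downstream of them, by 0.28 (adjusted p = 0.0462).

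**Figure D5:**
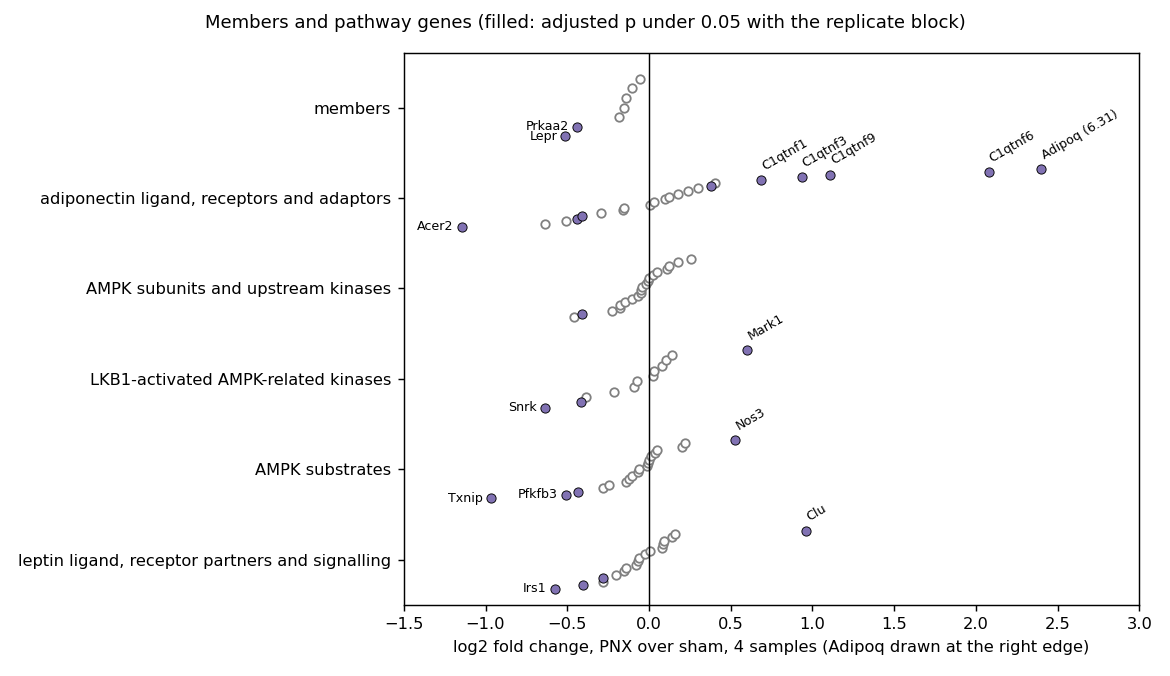
Each point is the log2 fold change of PNX over sham of 1 gene on 4 samples (edgeR without a block), grouped by list, and filled points had an adjusted p under 0.05 with the replicate block. The 7 members all lie below 0, with Lepr and Prkaa2 filled; Adipoq, whose fitted value of 6.31 depends on the prior count because sham has 2 counts in all, is drawn at the right edge.

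As a description, the genes whose log2 CPM ran most like that of each receptor over the 6 libraries were listed by Pearson's r among 14283 genes. They were Ccdc42, Fzd3 and Nop10 for Adipor1 (r = 0.993 to 1.00), Wars2, Lrrc56 and Sf3b1 for Adipor2 (r = 0.999), and Ptplad1, Trp53inp1 and Efna1 for Lepr (r = 0.998 to 1.00). With 6 points that fall into 2 deposits and 2 groups, r above 0.95 was reached by 389, 451 and 590 genes for Adipor1, Adipor2 and Lepr.

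The 2 members that fell in the blocked fit were set beside the markers of other cells. Over the libraries in which Lepr and Prkaa2 were lower, log2 fold changes were negative for 6 of 6 alveolar epithelial markers, 4 of 4 club airway markers (2428 to 4407 CPM in sham, 1127 to 1182 CPM in PNX) and 6 of 6 lymphocyte markers (79.3 to 107 CPM in sham, 43.0 to 63.8 CPM in PNX). They were positive for 5 of 5 measured macrophage markers (238 to 460 CPM in sham, 644 to 762 CPM in PNX), 5 of 5 mesothelial markers (133 to 349 CPM in sham, 289 to 786 CPM in PNX), 5 of 6 fibroblast markers and 3 of 6 markers of smooth muscle and pericytes. Endothelial markers had a median log2 fold change of -0.12, positive in 2 of 8 and negative in 6 of 8. The part of these shifts in the levels of Lepr and Prkaa2 was not tested.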

How the data were processed

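The study made TruSeq stranded mRNA libraries of lung ECs, and the authors used the Basepair platform to align the paired-end reads to mm10 (GRCm38) and to count them. The submitters' processing notes name STAR, with no version. How shared reads were counted is not given in the sources used here. Of each library the authors deposited, per transcript, an unnormalized count, FPKM and TPM. The deposited FPKM values entered no test, and the deposited TPM values served to compare levels between genes.

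Counts were summed per symbol. Replicates 1 and 2 of a group were summed after a chi-square check on single-transcript genes whose pair of libraries held at least 20 counts. The main test on the 4 samples was edgeR's quasi-likelihood test (version 4.0.16, R 4.3.3) after filterByExpr and TMM scaling, with p-values adjusted by Benjamini-Hochberg across every gene tested. DESeq2 1.42.0, limma 3.58.1 (voom), the 6 libraries, other scalings, no filter and left-out libraries were alternatives. The scripts were tested on simulated data. Levels in CPM were computed with TMM-scaled library sizes. Standard errors were obtained from edgeR as the absolute log2 fold change over the square root of F. The study gives each group 3 pools of 2 mice; summing replicates 1 and 2 departs from that, and the fit on the 6 libraries keeps it. By their labels, replicates 1 and 2 are re-used from an earlier deposit in each group, which gives the replicate block of the 4 samples. In the blocked fit on the 6 libraries the block was instead the replicate number. It pairs sham and PNX libraries of the same number, a pairing that the labels do not state. Across 14774 genes, the log2 differences of the later from the earlier sample were compared between the groups and had a Spearman's rho of 0.724 and a Pearson's r of 0.699; genes are not independent replicates. Counting intervals are exact at 95% and cover counting error only. For Lepr they were computed on the transcript with the highest counts alone, and how its shared reads were assigned is not given.

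Named genes were the 7 members, Adipoq, Cdh13, Lep and Leprot, in each pathway list up to 3 highest and 3 lowest genes with an adjusted p under 0.05, taken from the blocked fit since the other had none, and for each receptor the 3 genes with the highest correlation at a mean count of at least 50 (log2 of CPM plus 0.5). C1qtnf12 and Ero1a were listed under symbols that did not match. The members, lists and tests were chosen with earlier results of these data known. Positions, overlaps and transcript sequences are from GENCODE vM21, which is built on mm10.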

Additional observations from a re-analysis of the deposited data

How the results depend on the processing

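Members past both thresholds stayed at 0 under every alternative run. The log2 fold change of each member was recomputed under 29 alternatives and stayed negative except in Appl1 and Prkaa1, at 0.0157 and 0.0159 without sham replicates 1 and 2. The difference in the log2 ratio of Adipor2 to Adipor1 ran from -0.25 (without PNX replicate 3) to 0.0207 (without sham replicate 3). Without PNX replicate 3, that of Lepr to Adipor2 went from -0.35 to -0.0033, of Lepr to Adipor1 from -0.47 to -0.25, of Prkaa2 to Prkaa1 from -0.31 to -0.15 and of Lepr to Leprot from -0.67 to -0.43; without sham replicate 3, Lepr to Adipor2 was at -0.59. The log2 fold change of Lepr ran from -0.78 without PNX replicates 1 and 2 to -0.28 without PNX replicate 3, and that of Prkaa2 from -0.73 to -0.20 under the same alternatives. Members with an adjusted p under 0.05 numbered 0 in the main test and 2 with the replicate block on 4 samples. There were 5 on the 6 libraries with the replicate number as the block. The earlier deposit alone, where replicates are near counting error, gave 6. With the block on 4 samples there were 2 under each other scaling or with 1 library left out, and 1 in DESeq2. Lepr passed in all 10 blocked fits (adjusted p up to 0.0324) and Prkaa2 in 9 (up to 0.0726); outside these and the earlier deposit alone neither did. Pathway genes past both thresholds numbered 0 in the main test, 2 with 6 libraries, 2 in DESeq2 on 4 samples, 3 in DESeq2 on 6 libraries, 3 in the earlier deposit alone, 3 with the block on 6 libraries, and 4 with the block on 4 samples, whichever scaling, tool or left-out library. Over all genes the counts were 0 in the main test, 409 with 6 libraries, 587 and 927 in DESeq2 on 4 samples and 6 libraries, 1203 in the earlier deposit alone, 0 to 2 with 1 library left out (2 without PNX replicate 3), 849 with the block, 920 with it on 6 libraries, 624, 646 and 629 with it under DESeq2 size factors, upper-quartile scaling and library size alone, 815 with it in DESeq2, and with it and 1 library left out 671 and 668 (sham replicates 1 and 2) and 485 and 863 (PNX replicates 1 and 2). The block with another scaling, tool or library left out was chosen after seeing the data. The cause of these changes was not tested.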
